A study of Solanum lycopersicum with 2 samples.

Results

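Red ripe tomato fruit (Solanum lycopersicum) was examined for 10 loci of the circadian clock, out of 34725 gene identifiers in the deposited table. The loci were chosen by identifier as LHY, a pair of GIGANTEA loci, a pair of TOC1-like loci, PRR5, PRR7, PRR9, EID1 and LNK2. These names come with the choice of loci, since the table gives identifiers alone and none of them matched the 41476 genes of the RefSeq reference table. Fruit of the wild type (CK) was compared with fruit of a line (OX, or OX1) overexpressing ALMT9, which belongs to the aluminum-activated malate transporters, channels of plant membranes. All plants were grown at 28 °C by day and 20 °C by night, and 3 plants per genotype gave fruit 49 days after their flowers opened. Each genotype is 1 library and 1 line. The sources used here give neither the promoter of the transgene nor the cultivar, and do not say whether plants were pooled. The differences below could not be checked against replicates, so p-values are left out and each comparison describes 2 libraries rather than the genotypes. The labels give the age of the fruit in days, but not the date or hour of harvest. Genotype and harvest time therefore cannot be told apart in these libraries.

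The plant clock is a set of transcription factors that repress each other in turn over the day. As described in Arabidopsis, LHY is highest around dawn and represses evening genes, the pseudo-response regulators PRR9, PRR7 and PRR5 follow one another through the day and repress LHY, and GIGANTEA and TOC1 are highest late in the day. LNK2, a coactivator expressed in the morning, acts with MYB factors related to LHY, and EID1 is an F-box protein of phytochrome signalling. Cultivated tomato carries variants of EID1 and LNK2 that delay or lengthen the daily rhythm compared with wild relatives. LHY, LNK2, PRR9 and PRR7 are treated here as morning loci, and PRR5, the GIGANTEA pair and the TOC1-like pair as evening loci. This grouping rests on Arabidopsis, and the phase of these loci in tomato fruit was not measured. EID1 was placed in neither group.

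Levels are RPKM, reads divided by the length of the gene model and by the reads of the library, so that levels of different genes can be set side by side. The RPKM values correspond to a total of 19736832 reads in CK and 19252026 in OX. Intervals on levels and ratios are 95% intervals from the smallest read numbers that the values allow, and cover counting error only. The locus entered for ALMT9, Solyc06g072910.2, was at 0.0742 RPKM in CK and 20.5 RPKM in OX, the direction of the label. All 6 loci entered as markers of ripe fruit were abundant, at 305 to 3979 RPKM in CK and 524 to 2363 RPKM in OX. Of these ripening loci, 3 had ratios above 1 and 3 below 1 beyond counting error, a difference that 62.3% of all genes with a mean RPKM of 1 or more showed in either direction. At least 2-fold higher in OX were 2 of them, Solyc07g049530.2 with a ratio of 3.65 and Solyc01g095080.2 with 3.25. Of all genes at that expression level, 8.09% were at least 2-fold higher. The lowest ratio of the ripening loci was 0.505 at Solyc09g089580.2. The part of these differences in the clock values was not tested. Markers of green tissue, 9 light-harvesting loci, summed to 3.70 and 4.37 RPKM, with 3 and 2 of them listed at 0.

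Both libraries held high levels of the GIGANTEA and TOC1-like loci and low levels of LHY, PRR9, LNK2 and PRR5. The TOC1-like locus Solyc03g115770.2, on chromosome 3 by its identifier, was the most abundant of the 10, at 43.6 RPKM in CK and 44.2 RPKM in OX. The lowest was PRR9, Solyc10g005030.2 on chromosome 10, at 0.544 and 0.335 RPKM. LHY, Solyc10g005080.2 on the same chromosome, was next lowest in both libraries, at 0.978 and 0.809 RPKM. These levels put the TOC1-like locus at percentile 89.7 of all identifiers in CK and LHY at percentile 51.4, where 11740 identifiers were listed at 0. All 10 loci were detected in each library.

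**Figure D1:**
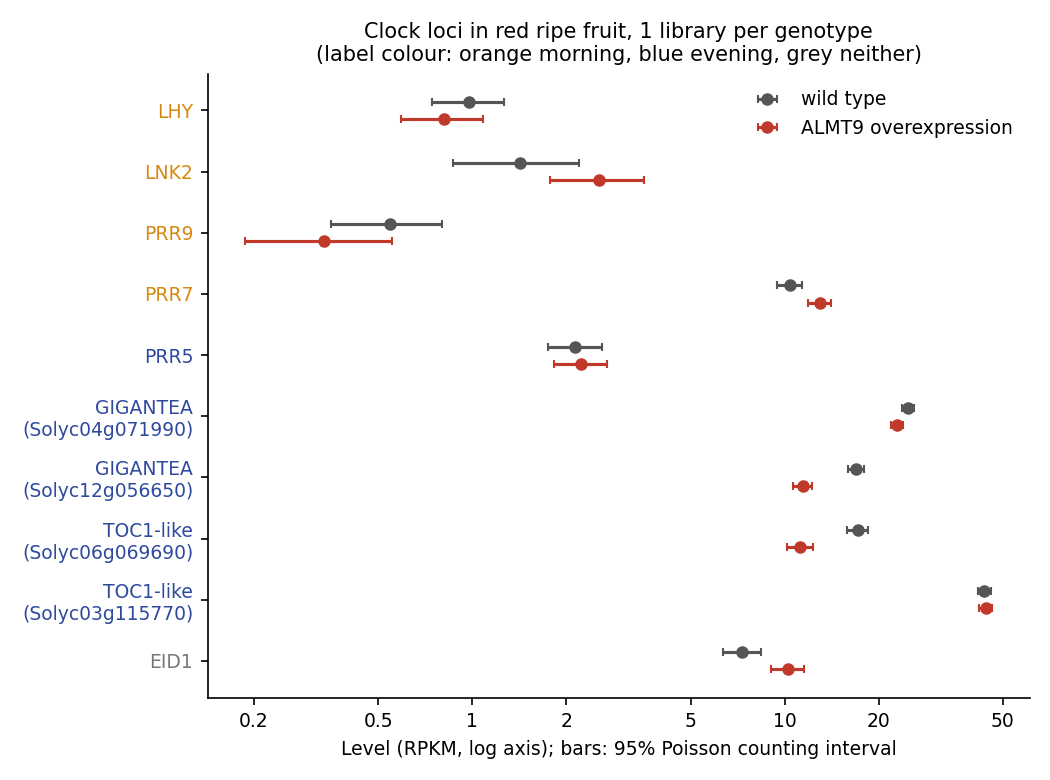
Level of each clock locus in RPKM on a log axis, with 95% Poisson counting intervals, for CK (grey) and OX (red). LHY and PRR9 sit below 1 RPKM in both libraries, and the TOC1-like locus Solyc03g115770 sits near 44 RPKM in both.

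Set against LHY within the same library, the GIGANTEA and TOC1-like loci stood far above it. The GIGANTEA locus Solyc04g071990 was at 25.4 times the RPKM of LHY in CK and 28.4 times in OX. For the TOC1-like locus Solyc03g115770 these multiples were 44.6 and 54.6. PRR9, which in Arabidopsis follows LHY in the morning, was at 0.556 and 0.414 times the level of LHY. The counting interval of the change between libraries, by a normal approximation, spanned 1 for these 3 loci, for instance 0.753 to 1.65 for GIGANTEA over LHY. It also spanned 1 for PRR5, Solyc12g056650 and Solyc06g069690. Relative to LHY, EID1 was 1.69 times higher in OX than in CK (interval 1.10 to 2.60), LNK2 2.17 times (1.11 to 4.25) and PRR7 1.51 times, with a lower bound barely above 1. All of these intervals share the 57 and 46 reads of LHY.

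In both libraries the first and second places in the order of levels were held by the TOC1-like locus Solyc03g115770 and the GIGANTEA locus Solyc04g071990. In CK the TOC1-like locus Solyc06g069690, the GIGANTEA locus Solyc12g056650, PRR7 and EID1 followed. In OX PRR7 stood before these evening copies. The intervals of Solyc06g069690 (15.9 to 18.5 RPKM) and Solyc12g056650 (15.9 to 17.9 RPKM) overlapped in CK, so their order there is within counting error. In OX PRR7 (11.9 to 14.1 RPKM) overlapped Solyc12g056650 (10.7 to 12.3 RPKM) and Solyc06g069690 (10.2 to 12.3 RPKM). LNK2 and PRR5 also changed places, with overlapping intervals in each library.

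Between the libraries no clock locus was 2-fold apart on the log2(RPKM + 1) scale. Of the 17287 genes whose mean RPKM was 1 or more, 12.4% were at least 2-fold apart, 8.09% higher and 4.3% lower in OX. LHY and PRR9 lay under this level, and none of the other 8 clock loci was 2-fold apart. None reached 1.5-fold on this scale either, which 28.8% of all genes did. On RPKM itself, without the added 1, LNK2, PRR9 and the TOC1-like locus Solyc06g069690 were farther apart than that. Log2 differences of these 8 loci ran from -0.57 to 0.55 around a median of 0.03, with a median size of 0.37 regardless of sign. Over all 17287 genes the median was 0.016 and the median size 0.35, so the clock loci differed about as much as genes in general. Counting intervals of the RPKM ratio left out 1 for 6 of these 8 loci, 3 above and 3 below. Among all genes 62.3% did so, 32.5% above and 29.9% below, which is a similar share. Fewer cells of a type and less RNA per cell cannot be told apart in whole fruit.

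**Figure D2:**
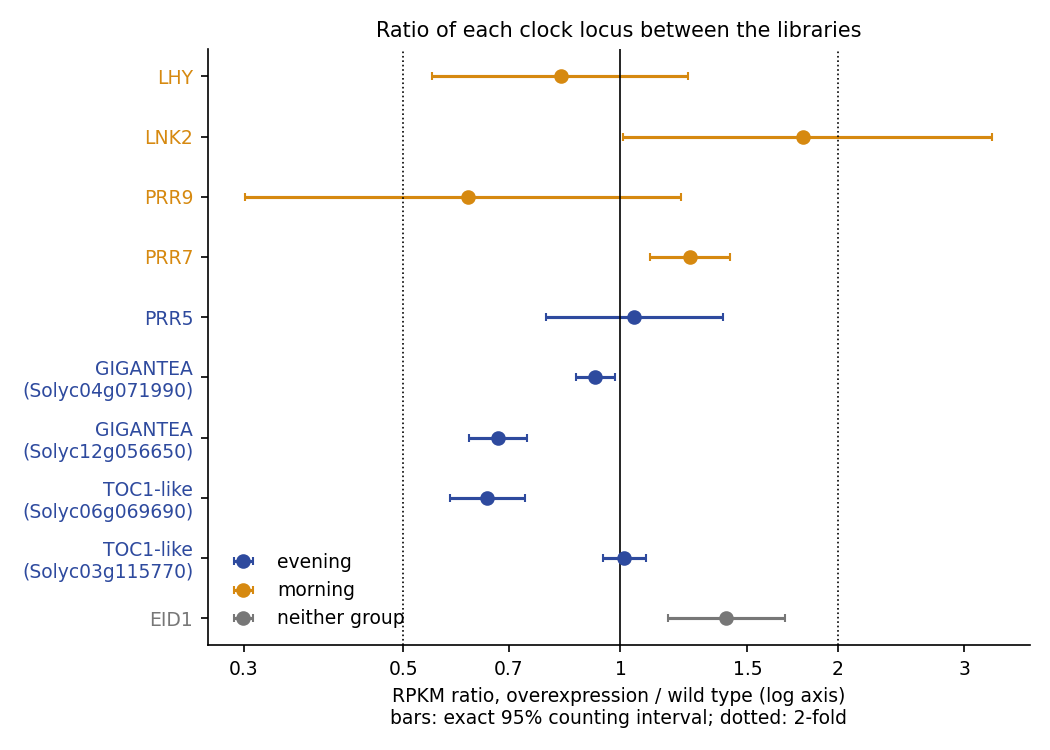
RPKM ratio of OX to CK for each clock locus on a log axis, with exact 95% counting intervals. A solid line marks 1 and dotted lines mark 2-fold; intervals of 3 evening loci lie below 1, and those of LNK2 (lower end 1.01), PRR7 and EID1 lie above it.

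Signs differed among the morning loci, and the ratios below 1, those of LHY and PRR9, were within counting error. LHY, the MYB repressor of the dawn phase, had an RPKM ratio of 0.827 with an exact counting interval of 0.549 to 1.24, from 57 and 46 reads. PRR9, the earliest of the pseudo-response regulators, went from 25 to 15 reads, or 0.615 times the RPKM (0.302 to 1.21). Neither difference exceeds counting error, and changes within these bounds were not detectable at this depth.

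PRR7, the next regulator of the series, was higher in OX. Solyc10g086000.1, on chromosome 10, was at 10.4 RPKM in CK and 13.0 RPKM in OX, from 450 and 548 reads. The ratio was 1.25, with an interval of 1.10 to 1.42. Its log2(RPKM + 1) difference was 0.29, and 29.8% of all genes were at least as far above 0.

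LNK2, Solyc01g068560.2 on chromosome 1, had the largest ratio of the 10 loci and one of the least precise. It stood at 1.42 RPKM in CK and 2.55 RPKM in OX, from at least 20 and 35 reads. Its ratio of 1.79 had an interval of 1.01 to 3.28. With the overexpression values rescaled, the lower bound fell to between 0.947 and 0.996 in the 4 scalings tried. On these smallest read numbers the difference was therefore not beyond counting error once scaling is allowed for. If the true read numbers were larger, the interval would be narrower. The difference on the log2(RPKM + 1) scale was 0.55, a size that 17.4% of all genes reached or passed upwards.

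Among the evening loci, 1 copy of each pair was lower in OX while the other copy differed less. The GIGANTEA locus Solyc12g056650.1, on chromosome 12, was at 16.9 RPKM in CK and 11.4 RPKM in OX. Its ratio was 0.677, with an interval of 0.617 to 0.742, from 1169 and 772 reads. Its log2(RPKM + 1) difference was -0.52, and 14.9% of all genes were at least as far below 0. The other GIGANTEA locus, Solyc04g071990.2 on chromosome 4, was at 24.9 and 22.9 RPKM, or 0.923 times (interval 0.866 to 0.983). Both intervals lie below 1 and do not overlap each other. GIGANTEA is a large scaffold protein that, in Arabidopsis, stabilises the F-box protein ZEITLUPE and acts in flowering by day length.

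The TOC1-like loci, counterparts of the evening repressor TOC1, formed a similar pair. Solyc06g069690.2, on chromosome 6, went from 17.1 RPKM in CK to 11.2 RPKM in OX. The ratio of 0.654 had an interval of 0.579 to 0.737, from 701 and 447 reads. On the log2(RPKM + 1) scale the difference was -0.57, and 13.0% of all genes lay at least as far below 0. The more abundant copy Solyc03g115770.2, at 43.6 and 44.2 RPKM, was 1.01 times as high in OX (interval 0.947 to 1.08). Its log2 difference of 0.02 turned below 0 in 3 of the 4 scalings, so it has no stable direction.

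The more abundant copy therefore held a larger share of its pair in OX. Solyc04g071990 made up 59.5% of the summed RPKM of the GIGANTEA pair in CK and 66.7% in OX. For Solyc03g115770 the share of the TOC1-like pair was 71.8% and 79.8%. These shares do not depend on the scaling of a library. The sources used here do not say how reads that match both copies were counted, so the split within a pair is uncertain.

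PRR5, which in Arabidopsis acts between PRR7 and TOC1, was similar in both libraries. Solyc03g081240.2, on chromosome 3, was at 2.14 RPKM in CK and 2.24 RPKM in OX. The ratio was 1.05, with an interval of 0.788 to 1.39, and its log2 difference of 0.04 changed sign with scaling to equal column sums.

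EID1, the F-box protein, was higher in OX. Solyc09g075080.2, on chromosome 9, was at 7.32 RPKM in CK and 10.3 RPKM in OX, from 199 and 272 reads. Its ratio of 1.40 had an interval of 1.16 to 1.69, and 22.2% of all genes lay at least as far above 0 on the log2(RPKM + 1) scale.

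Taking morning and evening loci as groups, the evening side was higher in both libraries and the gap was smaller in OX. The 4 morning loci summed to 13.3 RPKM in CK and 16.7 RPKM in OX, most of it PRR7. The 5 evening loci summed to 105 and 92.0 RPKM. On the log2(RPKM + 1) scale the mean of the morning loci minus that of the evening loci was -2.43 in CK and -2.08 in OX. Levels of these loci at known hours were not available, so neither gap can be read as a time of day. The change of 0.36 had a counting interval of 0.18 to 0.53 by a normal approximation. The added 1 shrinks the counting error of weakly expressed loci such as LHY and PRR9, so the interval depends on it. With 0.1 added instead, the change was 0.32. No interval was computed for that setting, so a change beyond counting error is not established apart from the added 1. The change was 0.21 without LNK2, and between 0.27 and 0.47 without any other single locus. With medians in place of means of the groups it was 0.76. Signs within the groups were mixed, with 2 of 4 morning loci above 0 and 3 of 5 evening loci below 0. Counting intervals of the ratio left out 1 for 2 morning loci, both above, and for 3 evening loci, all below. The other 2 loci of each group spanned 1, and LNK2 did so in each scaling. Of all genes 32.5% had intervals above 1 and 29.9% below. The change thus averages loci beyond and within counting error. With 1 library per genotype it has no measure of variation between fruits or harvests.

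**Figure D3:**
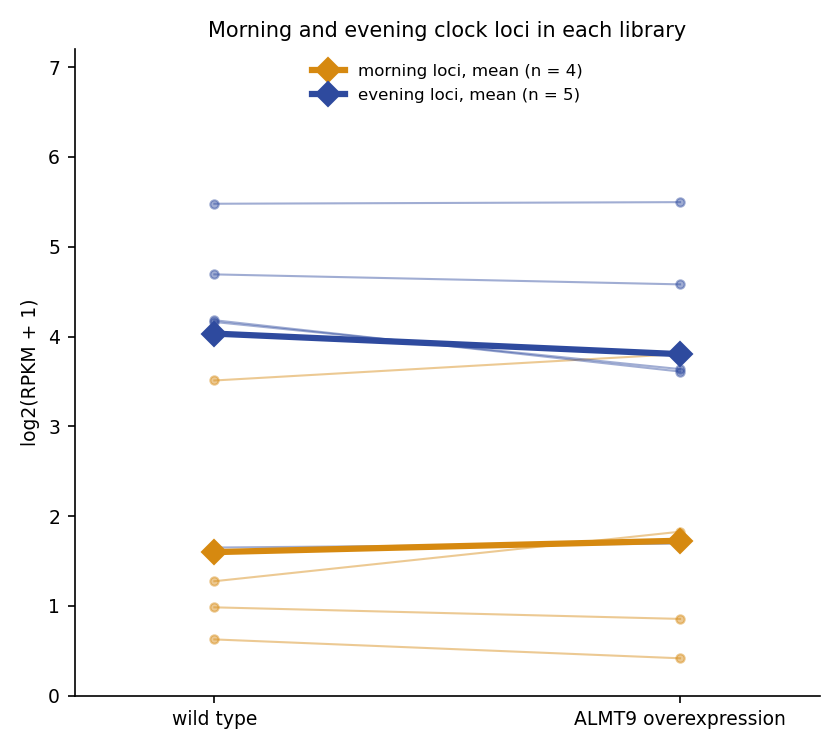
Levels of morning (orange) and evening (blue) clock loci as log2(RPKM + 1) in each library, thin lines for single loci and thick lines for group means. Evening means of 4.03 and 3.80 lie above morning means of 1.60 and 1.73, and the lines of single loci run in both directions.

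Most of the other clock and light perception loci had log2 differences below 0. They were entered as lists from remembered tomato locus assignments that no table or publication at hand could check, so a list may hold wrong loci, and members are described together. Of 6 further clock loci, entered for the evening complex and for F-box proteins that sense blue light, 5 had a mean RPKM of at least 1, with 1 above and 4 below 0. Their median log2 difference was -0.24, with 3 counting intervals below 1, none above 1 and no locus 2-fold apart. Among all genes 51.2% lay above 0, 29.9% had intervals below 1, 32.5% had intervals above 1 and 12.4% were 2-fold apart, shares that also stand behind the counts of the next lists.

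Loci entered for phytochromes and cryptochromes, the receptors of red and blue light, had a median of -0.41. Of the 8 entered, 7 passed the expression level, 1 above 0 and 6 below, with 5 counting intervals below 1 and 1 above. The latter spanned 1 in each of the 4 scalings. Loci entered for light signalling downstream of the receptors had a median of -0.54, with all 6 of those that passed, out of 7 entered, below 0 and 4 of their intervals below 1. The seventh, Solyc07g043580.2, lay under the expression level and went the other way, from 0.223 RPKM in CK to 1.03 RPKM in OX, with a ratio of 4.61 and bounds of 1.52 and 18.7 from 4 and 18 reads. None of the 13 loci that passed in these lists was 2-fold apart, against 12.4% of all genes. The lowest RPKM ratio among them, 0.483 at Solyc12g005950.1, was just within 2-fold on the log2(RPKM + 1) scale. This locus was singled out after its values were seen. Both medians stayed below 0 in each alternative scaling and pseudocount.

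**Figure D4:**
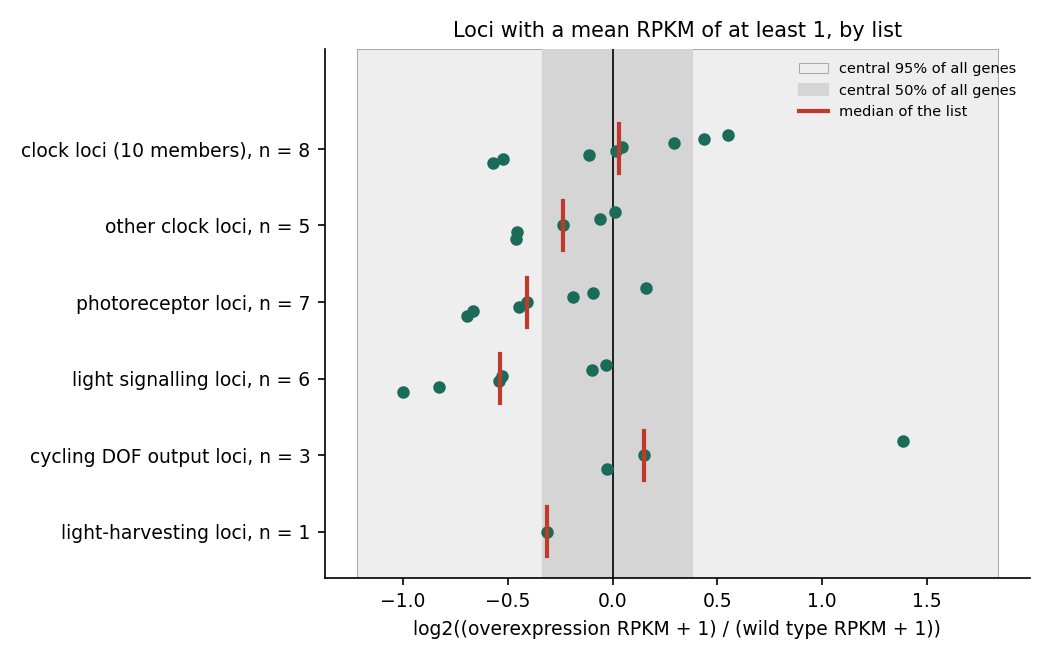
Log2 difference, overexpression against wild type, of each locus with a mean RPKM of at least 1 by list (points), with the list median (red line) over the central 50% and 95% of all genes (grey). Clock loci lie on both sides of 0, and 12 of the 13 photoreceptor and light signalling loci lie below it.

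The loci entered as clock outputs were weakly expressed. Loci entered for cycling DOF factors, repressors of flowering genes that the clock controls in Arabidopsis, ranged from 0.291 to 4.80 RPKM in CK and from 0.357 to 4.70 RPKM in OX. Of 5 loci, 3 passed the expression level, with a median of 0.15. The locus Solyc03g115940.2, singled out after its values were seen, was at 1.09 and 4.48 RPKM. Its ratio was 4.10, with counting bounds of 2.92 and 5.87. Of the listed clock, light and DOF loci with a mean RPKM of at least 1, it alone was at least 2-fold apart. The light-harvesting loci, clock outputs of leaves, held 1 locus above the expression level, at 2.35 and 1.69 RPKM. The counting interval of its ratio ran from 0.419 to 1.22. Solyc03g005770.1, under that level and singled out after its values were seen, was at 0.0630 RPKM in CK and 1.29 RPKM in OX. Its ratio was 20.5, with counting bounds of 3.28 and 850, from 1 and 20 reads.

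PRR9 and LHY lie close together on chromosome 10 by their identifiers, and the loci numbered between them did not share a direction. Solyc10g005040.2, next to PRR9, was at 3.45 RPKM in CK and 4.78 RPKM in OX, with a ratio interval of 0.888 to 2.18. Solyc10g005050.2 was at 22.0 and 16.4 RPKM, with an interval of 0.644 to 0.861. Solyc10g005060.2, the nearest to LHY among the loci numbered between it and PRR9, went from 2.02 to 8.09 RPKM, from 64 and 250 reads. The interval of its ratio was 3.03 to 5.36, whereas the ratio of LHY was 0.827. The table does not pair these identifiers with names.

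**Figure D5:**
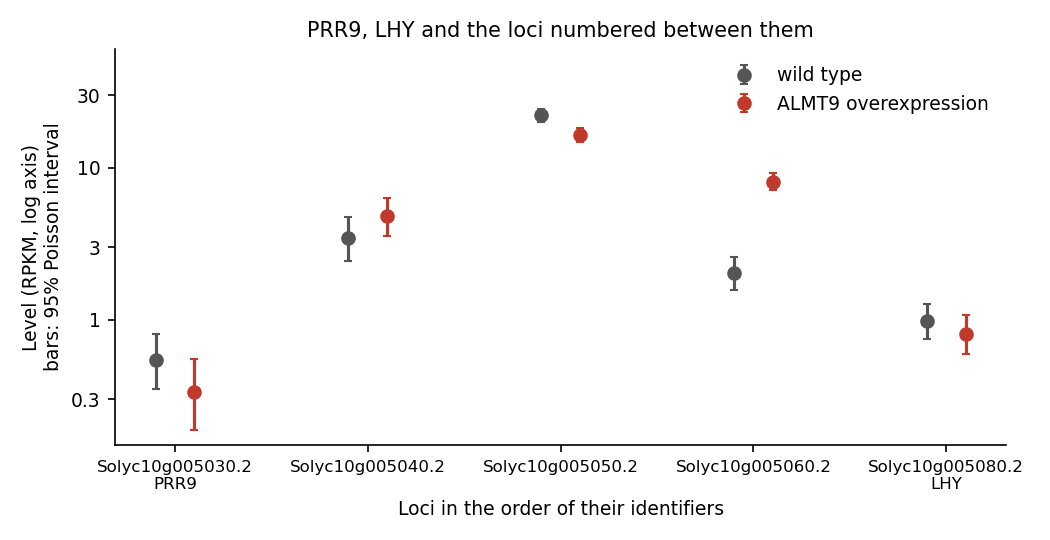
Levels in RPKM on a log axis, with 95% Poisson counting intervals, of PRR9, LHY and the loci numbered between them on chromosome 10, in CK (grey) and OX (red). Solyc10g005060 lies at 2.02 and 8.09 RPKM, while PRR9 and LHY stay below 1 RPKM.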

How the data were processed

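The authors deposited 1 table of RPKM values per gene identifier and library. TopHat is named in the submitters' processing notes. The sources used here do not give the read counter, genome build, annotation or strand setting, nor how multiply placed reads were handled. Columns were assigned by sample titles.

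Library totals were taken as the largest at which over 70% of 400 trial genes had a whole length (82.0% at these totals, within 0.02 bp). The shortest length of at least 60 bp giving whole reads in both libraries was then used, found for 24427 of 24429 genes above 0. Read numbers are thus the smallest possible, and intervals can be too wide. In data simulated for this comparison, 99.6% of 3000 genes were returned exactly or as a whole fraction. Ratio intervals are exact (Clopper-Pearson) and level intervals are exact Poisson intervals. PCR copies are not independent molecules, so they cover counting error only.

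Differences are log2((overexpression + 1)/(wild type + 1)), which understates the ratios of weakly expressed genes. No test was run, since each genotype has 1 library. All 10 clock loci, the ALMT9 locus and the loci between PRR9 and LHY are named. With 2 libraries a pattern is a single ratio, so no genes of like pattern were sought. Members and lists were chosen with earlier results of these data known. Alternatives covered pseudocount, expression level, threshold, scaling, and the grouping of loci. Calculations used Python 3.11.15, numpy 2.4.6, scipy 1.17.1 and pandas 2.3.3.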

Additional observations from a re-analysis of the deposited data

How the results depend on the processing

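The count of clock loci past the threshold, 0, stayed 0 in the 8 alternatives that could raise it, namely smaller pseudocounts, the scalings, no expression level and 1.5-fold. The change in the morning minus evening gap, 0.36, stayed above 0 in all 18 alternatives, from 0.21 to 0.76. The 4 scalings move both groups of a library nearly alike, so they could hardly turn its sign. The alternatives that leave out loci reuse the same values. The highest, 0.76 with medians in place of means of the groups, lay above the counting interval of 0.18 to 0.53. Intervals of PRR7 and EID1 stayed above 1 and those of both GIGANTEA loci and Solyc06g069690 below 1 in each of the 4 scalings, while that of LNK2 spanned 1 in all 4. The PRR9 difference of -0.21 was -0.57 with a pseudocount of 0.1. The number of all genes 2-fold apart, 2142, was 1009 with a pseudocount of 5, 1414 with a mean RPKM of at least 5, 4982 at 1.5-fold and 435 at 4-fold, as lower or stricter limits pass more or fewer genes. The median of the ripe fruit markers, 0.069, was -0.021 with equal column sums, 0.014 with equal sums without the 100 highest genes and 0.028 with the trimmed mean, since these scalings lower all overexpression values. No paired analysis was possible because there is 1 library of CK and 1 of OX, which also leaves no replicate to omit. Depth limits LHY, PRR9 and LNK2 most, with 15 to 57 recovered reads a library.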
